A study of Rattus norvegicus with 15 samples.

Results

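Galanin and somatostatin receptors are 8 genes for G protein-coupled receptors, Galr1 to Galr3 and Sstr1 to Sstr5, measured here in the rat subfornical organ during food and water deprivation. Every probe set annotated to 1 of these symbols was taken, which gave 12 probe sets of the 31099 on the array and 8 genes of the 14218 with a symbol of their own. The family was chosen by its measured values, since Galr2, Sstr2 and Sstr3 were already known to be higher after food deprivation in these same arrays. The food and control signals of the receptors are therefore a description: no p value is printed for the food difference. Counts of calls among them serve as a summary of size and spread, not as a test. Water deprivation is compared with the same controls, so its p values are not free of that choice.

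The subfornical organ is a small sensory nucleus outside the blood-brain barrier that reads blood-borne signals of fluid and energy state. Its RNA came from male Sprague Dawley rats aged 10 to 12 weeks. The 3 groups were untreated controls, water-deprived rats and rats deprived of food for 48 h. Each group had 5 arrays, and each array carried RNA pooled from 5 animals. The sample labels give a treatment protocol for the food-deprived group only, while the design text of the series, read literally, puts denial of food for 48 h on all conditions. The length of water deprivation is not given in the sources used here. Values are the deposited signal intensities on a linear scale, and differences are log2 differences of signal + 16, which understate the change of dim probe sets. In pooled tissue, fewer cells of a type and less RNA per cell cannot be told apart.

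Galanin is an inhibitory neuropeptide of hypothalamic and brainstem neurons, linked to feeding and fluid intake. Its receptors Galr1 and Galr3 act mainly through Gi and Go proteins, whereas Galr2 also signals through Gq to phospholipase C. All somatostatin receptors couple to Gi and Go, which lower cyclic AMP and open inward rectifier potassium channels.

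The promoters of Galr2, Sstr2 and Sstr3 are shown because these genes differed most between food-deprived and control arrays. Each sequence is the 250 bases before the annotated start, 5′ to 3′ on the strand of the gene, from RefSeq on the rat build GRCr8. The windows are chr10:102013376-102013625 on the plus strand for Galr2, chr10:99163103-99163352 on the plus strand for Sstr2 and chr7:111980251-111980500 on the minus strand for Sstr3. Capitals mark matches to the motifs searched.
Galr2: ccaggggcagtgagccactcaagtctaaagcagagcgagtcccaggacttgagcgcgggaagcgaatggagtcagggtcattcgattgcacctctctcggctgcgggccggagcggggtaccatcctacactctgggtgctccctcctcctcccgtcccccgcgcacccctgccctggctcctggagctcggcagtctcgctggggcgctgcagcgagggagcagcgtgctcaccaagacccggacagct
Sstr2: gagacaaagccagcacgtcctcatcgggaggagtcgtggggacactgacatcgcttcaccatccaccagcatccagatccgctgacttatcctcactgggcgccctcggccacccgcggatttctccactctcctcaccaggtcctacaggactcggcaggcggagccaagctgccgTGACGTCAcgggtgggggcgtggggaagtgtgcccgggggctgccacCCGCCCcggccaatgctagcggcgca
Sstr3: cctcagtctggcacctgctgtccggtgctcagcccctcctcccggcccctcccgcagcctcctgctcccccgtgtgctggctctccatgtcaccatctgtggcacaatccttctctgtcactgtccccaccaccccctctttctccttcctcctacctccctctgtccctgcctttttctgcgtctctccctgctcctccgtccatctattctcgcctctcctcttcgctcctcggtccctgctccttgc

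The motifs, searched on both strands, were the cyclic AMP response element TGACGTCA, its core TGACG, which overlaps it, the AP-1 site TGANTCA and the GC box GGGCGG. Sstr2 held the full cyclic AMP response element, with its first base 73 bases before the start, and a GC box on the opposite strand 26 bases before the start. The Galr2 and Sstr3 windows held none of these letters, at 66.8% and 63.2% G and C against 66.4% for Sstr2. Of the 8 receptor promoters, 1 held the full element, 2 the core (Sstr1 and Sstr2), 1 the AP-1 site (Galr3) and 3 the GC box (Galr1, Sstr2 and Sstr5). Among 33469 rat promoters of the same length, the shares were 1.59%, 18.2%, 6.34% and 30.5%. In Sst, whose cyclic AMP response element is a textbook case, the same letters began at base 3, counted from 1 at the annotated start, and so lay just outside the window searched. These matches are a description of the sequence.

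The arrays fell into 2 sets by the 5′ to 3′ signal ratio of the Actb and Gapdh control probe sets, a measure of how far the amplified RNA reaches from the 3′ end. Its mean log2 value was −0.86 to −0.71 on 7 arrays, made up of the whole food-deprived group with numbers 1 and 2 of the water-deprived group. It was −2.81 to −1.24 on the other 8, which hold the 5 controls with numbers 3 to 5 of the water-deprived group. These are called the high and the low set. Food deprivation and control therefore lie wholly in different sets, and only the water-deprived group spans both. Water-deprived array 3 lay far below the rest of the low set, at −2.81, the next lowest being control 5 at −1.675. It is 1 of the 3 low-set arrays of the group that spans both sets. The signal at the 25th percentile lay between 15.7 and 17.3 on high-set arrays and between 12.3 and 14.2 on low-set arrays, so the dim end of the scale read higher in the former. Differences are given below as fitted over the 3 groups and again with the array set as a term, which is estimated from the water-deprived arrays. Over all probe sets tested, 8.53% were called after food deprivation and 0.0046% in water deprivation, in either direction. Of 58 tested marker genes of 8 cell types and neighbouring regions, 1 was called higher after food deprivation (Cldn5, of endothelium) and 3 lower, with 0 called in water deprivation, where 8 passed unadjusted by limma. The 3 were Avp, Oxt and Pmch of the neighbouring hypothalamus, which were also lower in the high set within water deprivation. The summed signal of 7 measured hypothalamic markers was 1020 to 3710 in controls, 339 to 3650 in water deprivation and 266 to 297 in food deprivation. Summed neuronal markers were 4040 to 12600, 5600 to 9560 and 6420 to 10800, and summed subfornical organ neuron markers were 955 to 2130, 965 to 2170 and 1130 to 1320. Of those 7 genes for subfornical organ neurons, 6 were bright enough to test. After food deprivation their median difference from control was −0.036, and in water deprivation it was 0.59. In water deprivation Scn7a (−0.21) and Etv1 (−0.37) were below control, while 4 passed unadjusted by limma (Casr 0.94, Agtr1a 0.74, Calcr 0.63 and Npr1 0.54). With the array set term the food differences of these 4 were 0.82, 1.28, 0.90 and 1.18, beside water differences of 1.35, 1.23, 1.01 and 0.95. Those of Scn7a and Etv1 were 0.76 and 0.40 for food, beside 0.11 and −0.093 for water. The adjusted limma p of the food values with the term ran from 0.471 to 0.674. All 6 had a lower mean in the high set within water deprivation (median −0.98), and 3 of them, Casr, Calcr and Npr1, were called lower. In that contrast 15.9% of all probe sets tested were called in either direction. Oligodendrocyte markers had a median difference of 0.56 after food deprivation, with 7 of 7 above 0, 2 of them past an unadjusted limma p of 0.05 and 0 called. Between the high and low sets within water deprivation their median was 0.59, again with 7 of 7 above 0. With the array set term their food differences ran from −0.16 (Mobp) to 0.19 (Cnp). Microglial markers had a median of −0.38 in water deprivation, with 7 of 7 below 0, 4 past the unadjusted limit and 0 called. For all these marker counts at the unadjusted limit, the share of all probe sets tested is not given here. The part of tissue make-up and of the array sets in the receptor values was not tested beyond the values given here.

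**Figure D1:**
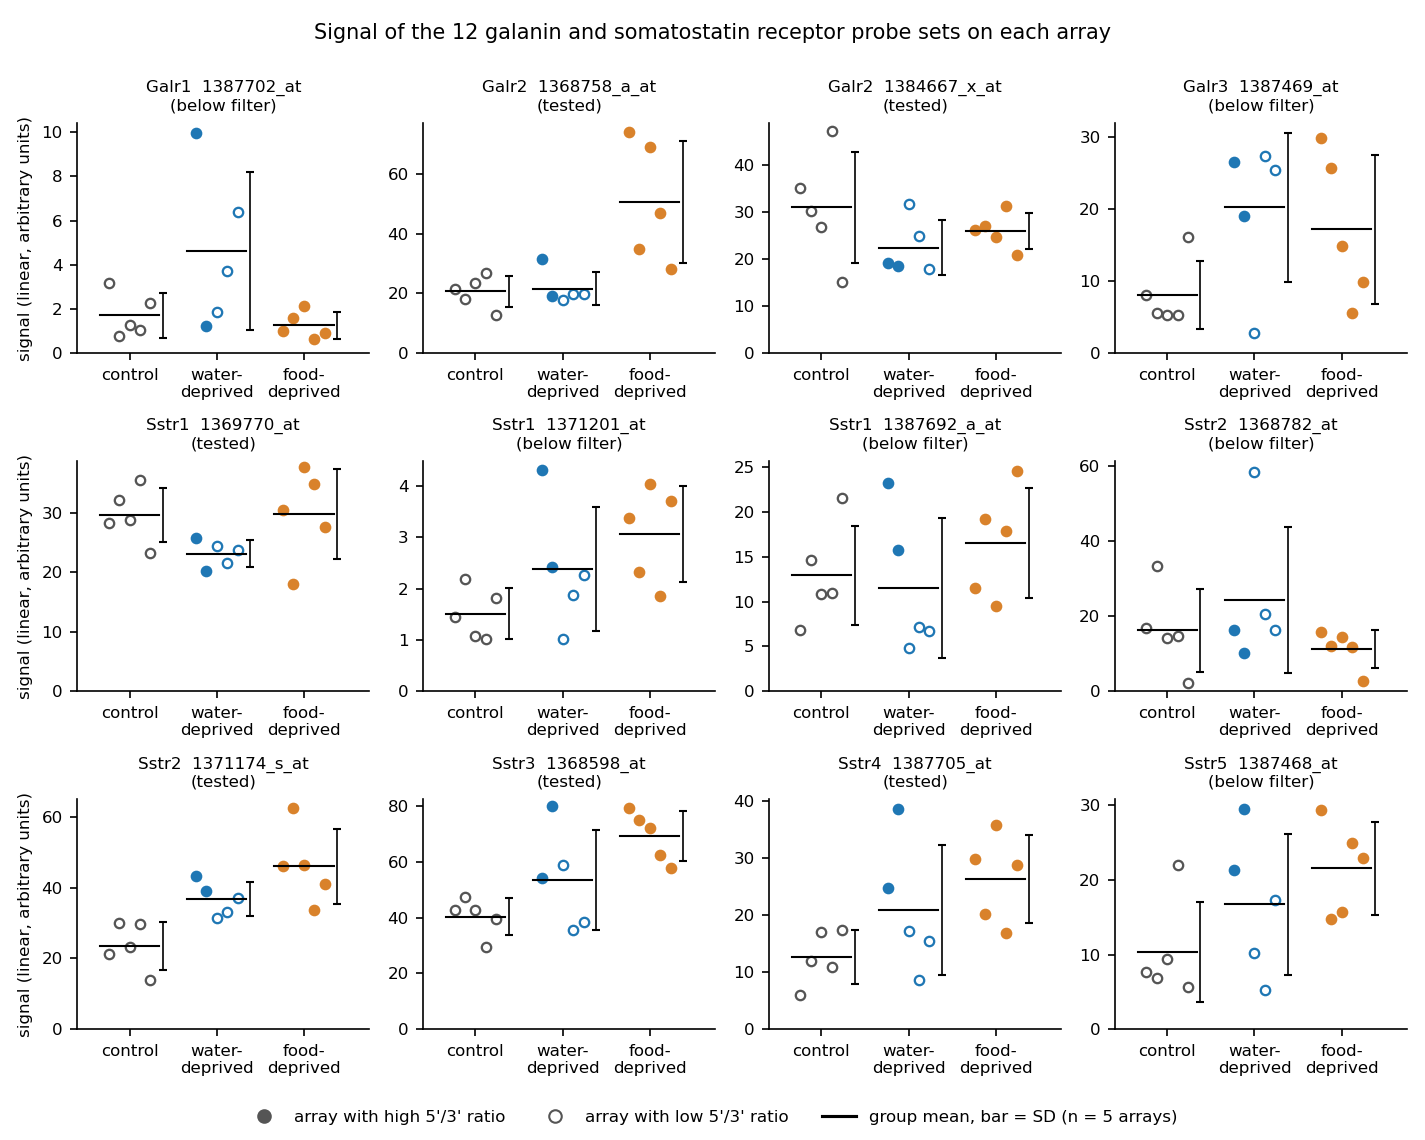
Signal of each of the 12 receptor probe sets (y axis, linear, arbitrary units) on each of the 15 arrays by group; filled points are arrays with a high 5′ to 3′ ratio, lines are group means and bars are SD over 5 arrays. All 5 food-deprived arrays lie above all 5 controls for Galr2 (1368758_a_at), Sstr2 (1371174_s_at) and Sstr3, and all 5 water-deprived arrays do so for Sstr2 (1371174_s_at).

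The limma tests cover probe sets whose log2 value averaged above 5.11 over the 15 arrays, a signal of 18.6. Of the 12 receptor probe sets 6 passed, from 5 genes. Galr1, Galr3 and Sstr5 had no probe set above this level, and Sstr1 and Sstr2 had further probe sets below it. Sstr4 passed by a small margin, at a mean of 5.12, with its highest group mean in food deprivation. Levels of different probe sets were not compared, since each has its own response to its target.

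Galr2, the galanin receptor that reaches phospholipase C, had a signal of 74.0, 34.8, 69.1, 46.9 and 28.0 on the food-deprived arrays for probe set 1368758_a_at. It had 21.6, 18.2, 23.6, 26.8 and 12.9 in controls and 31.5, 19.0, 17.8, 19.8 and 19.9 in water deprivation. Every food-deprived array exceeded every control, by 28.0 against 26.8 at the closest, while water-deprived and control arrays overlapped. The difference between food deprivation and control was 0.82 ± 0.19 (SE, limma fit, n = 5 arrays per group), or 1.76-fold in signal + 16. Between water deprivation and control it was 0.039 ± 0.19 (limma, adjusted p = 0.974). The sign of the water difference turned with the array set term, at −0.047 ± 0.22. Against the 2 water-deprived arrays of the high set, 4 of 5 food-deprived arrays were above the higher, at a mean difference of 0.65.

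The other Galr2 probe set, 1384667_x_at, did not show this. Its suffix marks probes that may also bind other transcripts. Its signal was 26.2, 27.0, 24.7, 31.2 and 20.8 in food deprivation, 35.2, 30.3, 26.8, 47.3 and 15.2 in controls and 19.2, 18.5, 31.6, 24.9 and 17.9 in water deprivation. The food-deprived and control arrays overlapped, with a difference of −0.13 ± 0.16, the opposite sign to the other Galr2 probe set. With the array set term it was 0.085 ± 0.28, the same sign, and all 5 food-deprived arrays were above both high-set water-deprived arrays, by a mean of 0.26. Water deprivation differed from control by −0.26 ± 0.16 (limma, adjusted p = 0.76). The higher Galr2 signal in food deprivation than in control rests on 1 of its 2 probe sets.

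Galr1, the Gi-coupled receptor of many hypothalamic neurons, was near the bottom of the scale. Its signal ran from 0.622 to 2.13 in food deprivation, 0.778 to 3.18 in controls and 1.22 to 9.95 in water deprivation, below the lowest 25th percentile of any array. Galr3 had 29.9, 25.8, 14.9, 5.58 and 9.92 in food deprivation, 8.05, 5.59, 5.34, 5.25 and 16.2 in controls and 26.6, 19.1, 2.74, 27.4 and 25.5 in water deprivation. For Galr3, 4 of 5 water-deprived arrays exceeded the highest control and the fifth was the lowest of all 15. The mean difference between water deprivation and control was 0.55 for Galr3 and 0.21 for Galr1. Neither gene was tested.

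Sstr2, the somatostatin receptor whose activation inhibits neurons and hormone release widely in the brain and pituitary, had 46.2, 62.4, 46.4, 33.6 and 41.1 on the food-deprived arrays for probe set 1371174_s_at, whose suffix marks probes shared by several transcripts. It had 21.2, 29.9, 23.2, 29.6 and 13.8 in controls and 43.3, 39.1, 31.3, 33.1 and 37.1 in water deprivation. All 10 arrays of deprived animals were above all 5 controls, and the 2 deprived groups overlapped. Food deprivation differed from control by 0.65 ± 0.14, or 1.57-fold. Water deprivation differed by 0.43 ± 0.14, or 1.35-fold, with an unadjusted limma p of 0.00757 and an adjusted p of 0.719, which misses the threshold. The controls of this difference had a part in choosing the family. Over the alternatives and the fits without 1 array, the adjusted p of that difference ran from 0.263 to 1. The 3 water-deprived arrays of the low set, at 31.3 to 37.1, were all above the highest control of that same set, and with the array set term the water difference was 0.35 ± 0.16 (limma, adjusted p = 0.82). The second Sstr2 probe set, 1368782_at, lay below the filter and showed no such order. It read 15.8, 12.0, 14.4, 11.7 and 2.7 in food deprivation, 16.8, 33.3, 14.3, 14.6 and 2.17 in controls and 16.3, 10.3, 58.5, 20.6 and 16.2 in water deprivation, so the higher Sstr2 signal also rests on 1 of 2 probe sets.

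Sstr3, a receptor concentrated in the primary cilia of neurons, had 79.1, 74.8, 71.9, 62.5 and 57.7 in food deprivation. It had 42.7, 47.2, 42.6, 29.4 and 39.5 in controls and 54.2, 79.7, 58.9, 35.5 and 38.4 in water deprivation. Every food-deprived array exceeded every control, and water-deprived arrays spread over the range of both groups. Food deprivation differed from control by 0.60 ± 0.16, or 1.52-fold, and by 0.14 ± 0.23 with the array set term. Water-deprived array 2, of the high set, had the highest Sstr3 signal of all 15, so 0 of 5 food-deprived arrays were above the higher of the 2 high-set water-deprived arrays, while all 5 were above the lower, array 1 at 54.2. Water deprivation differed from control by 0.27 ± 0.16 (limma, adjusted p = 0.76).

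Sstr4, a somatostatin receptor of forebrain neurons, read 29.9, 20.2, 35.8, 16.9 and 28.7 in food deprivation. It read 5.95, 11.9, 17.0, 10.9 and 17.4 in controls and 24.7, 38.6, 17.2, 8.66 and 15.5 in water deprivation. Of the food-deprived arrays, 4 of 5 were above the highest control, and the highest value of all was again water-deprived array 2. The difference between food deprivation and control was 0.56 ± 0.20, just outside the calls, against 0.60 for Sstr3 just inside, and it was −0.11 ± 0.28 with the array set term. Water deprivation differed from control by 0.33 ± 0.20 (limma, adjusted p = 0.76).

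Sstr5, best known from pituitary and pancreatic islets, read 29.4, 14.8, 15.7, 25.0 and 23.0 in food deprivation, 7.74, 6.91, 9.37, 22.0 and 5.72 in controls and 21.3, 29.5, 10.2, 5.34 and 17.3 in water deprivation. Food-deprived and control arrays overlapped for Sstr5 through control 4, and water-deprived arrays spread from below to above all controls. The differences of 0.53 and 0.29 for food and water deprivation were not tested. Sstr1, a receptor of hypothalamic and other brain neurons, overlapped between food deprivation and control, with 30.4, 18.1, 37.7, 34.8 and 27.7 against 28.3, 32.2, 28.8, 35.5 and 23.3 in controls for probe set 1369770_at. It read 25.8, 20.2, 24.5, 21.5 and 23.7 in water deprivation, where all 5 arrays were below the control mean. Its differences from control were −0.0073 ± 0.12 for food and −0.22 ± 0.12 for water deprivation (limma, adjusted p = 0.76 for the latter). The other Sstr1 probe sets stayed below the filter, with signals of 1.02 to 4.32 for 1371201_at and 4.78 to 24.6 for 1387692_a_at over the 15 arrays.

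**Figure D2:**
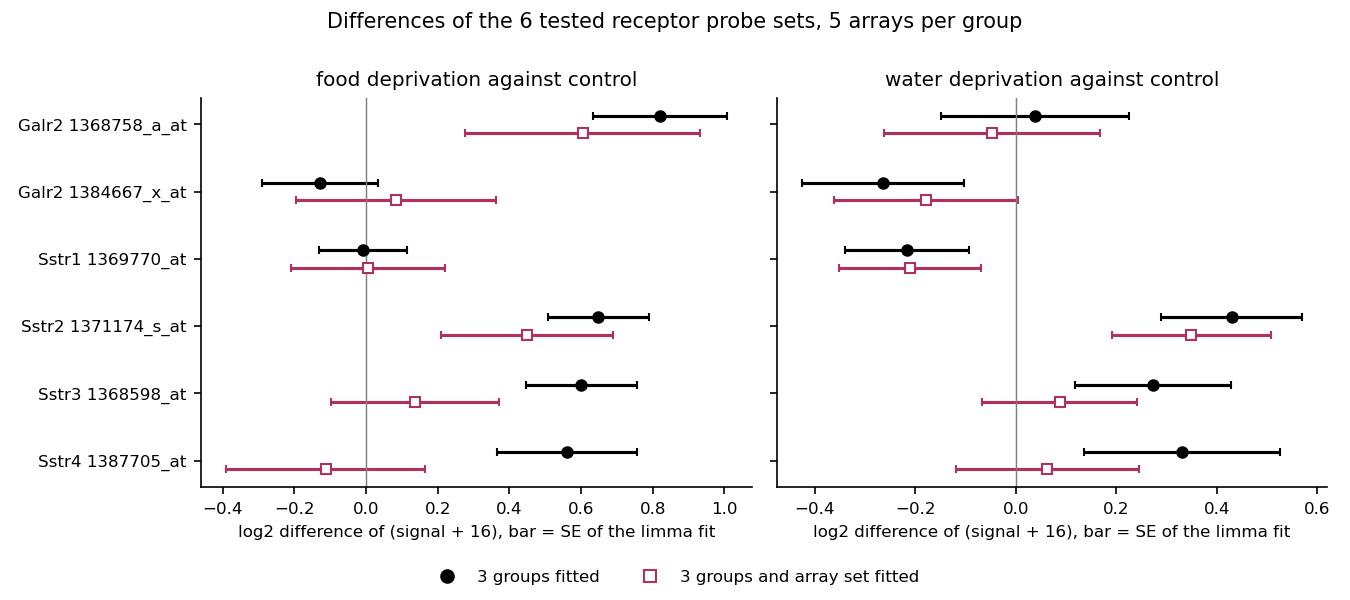
Log2 difference of signal + 16 from control (x axis) for the 6 tested receptor probe sets under food and water deprivation; bars are SE of the limma fit, circles are the fit of the 3 groups and squares the fit that adds the array set. With the term, the food difference moved from 0.82 to 0.60 for Galr2 (1368758_a_at), from 0.65 to 0.45 for Sstr2, from 0.60 to 0.14 for Sstr3 and from 0.56 to −0.11 for Sstr4.

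In food deprivation against control, 3 of the 6 tested probe sets were called higher (Galr2, Sstr2 and Sstr3) and 0 lower, at an adjusted limma p under 0.05 over all 21729 tested. Of all probe sets tested, 8.53% were called in either direction and 4.77% higher. All food-deprived arrays exceeded all controls for 3 of the 12 receptor probe sets, against 8.83% of all 31042. These shares are printed beside counts that the choice of the family used, so nothing is read from them. Of all 12, tested or not, 8 had a higher mean after food deprivation, and the median difference was 0.58 over the 6 tested and 0.15 over the 6 below the filter, beside 0.046 over all tested and 0.075 over all below the filter. With the array set term 0 of the 6 were called by limma, as were 0% of all 21729 tested. At an unadjusted p under 0.05, 0 of the 6 and 1879 of all passed with the term. The differences with the term were 0.60 ± 0.33 for Galr2 (1368758_a_at) and 0.45 ± 0.24 for Sstr2. The call of Sstr3 was lost when control 1, 3, 4 or 5 or food-deprived array 1, 2 or 3 was left out, and Sstr4 was called without water-deprived array 2.

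Water deprivation shares its controls with that comparison, and those controls had a part in choosing the family. Low control signals raise both differences, so the p values and shares given here are not free of that choice. By limma, 0 of the 6 tested receptor probe sets were called, where 0.0046% of all probe sets tested were called. At an unadjusted p under 0.05, 1 (Sstr2) passed, a limit for which the share of all probe sets is not given here. With the array set term 0 were called, against 0.0276% of all tested, and 1 (Sstr2) passed unadjusted, as did 1295 of all 21729. Sstr2 was the 1 receptor probe set of 12 whose water-deprived arrays all exceeded the controls, a pattern seen in 0.428% of all probe sets. In the same comparison the 6 tested markers of subfornical organ neurons had a median of 0.59, with 4 of 6 above 0. Their part in the Sstr2 difference was not tested. Of all 12, 9 had a higher mean in water deprivation, and the median difference was 0.16 over the 6 tested and 0.25 over the 6 below the filter, beside 0.0023 over all tested and 0.026 over all below the filter.

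Water deprivation was set directly against food deprivation as a description, since the food-deprived arrays had a part in choosing the family. All 6 tested receptor probe sets had a lower mean in water deprivation, with a median of −0.22 against −0.042 over all tested. The Galr2 difference was −0.78 ± 0.19 for 1368758_a_at and −0.65 ± 0.25 with the array set term, whereas Sstr3 went from −0.33 ± 0.16 to −0.050 and Sstr2 from −0.22 ± 0.14 to −0.10. For Sstr4 the direction turned, from −0.23 ± 0.20 to 0.17 ± 0.21. By limma 0 of the 6 were called, with 0.152% of all tested called. At an unadjusted p under 0.05, 1 (Galr2) passed, and the share of all tested at that limit is not given here. In 0 of the 12 did all water-deprived arrays lie below all food-deprived arrays, against 1.88% of all probe sets.

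Within water deprivation, the 2 arrays of the high set were compared with the 3 of the low set, a contrast the choice of the family did not use. Sstr4 was higher in the high set by 0.67 ± 0.23 (limma, adjusted p = 0.057) and Sstr3 by 0.46 ± 0.19 (limma, adjusted p = 0.114), both short of the threshold. Galr2 (1368758_a_at) differed by 0.21 ± 0.27 (limma, adjusted p = 0.612) and Sstr2 by 0.20 ± 0.20 (limma, adjusted p = 0.513). Of the 6 tested receptor probe sets 0 were called, where 15.9% of all tested were called. At an unadjusted p under 0.05, 2 (Sstr3 and Sstr4) passed, and the share of all tested at that limit is not given here. Both high-set arrays exceeded all 3 low-set arrays for 5 of the 12, among them Sstr2 (1371174_s_at), Sstr4 and Sstr5, a pattern seen in 28.1% of all 31042 probe sets. For Sstr3 and Sstr4 the array-set difference was 0.46 and 0.67, beside food differences of 0.60 and 0.56, while for Galr2 and Sstr2 it was 0.21 and 0.20 beside 0.82 and 0.65.

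**Figure D3:**
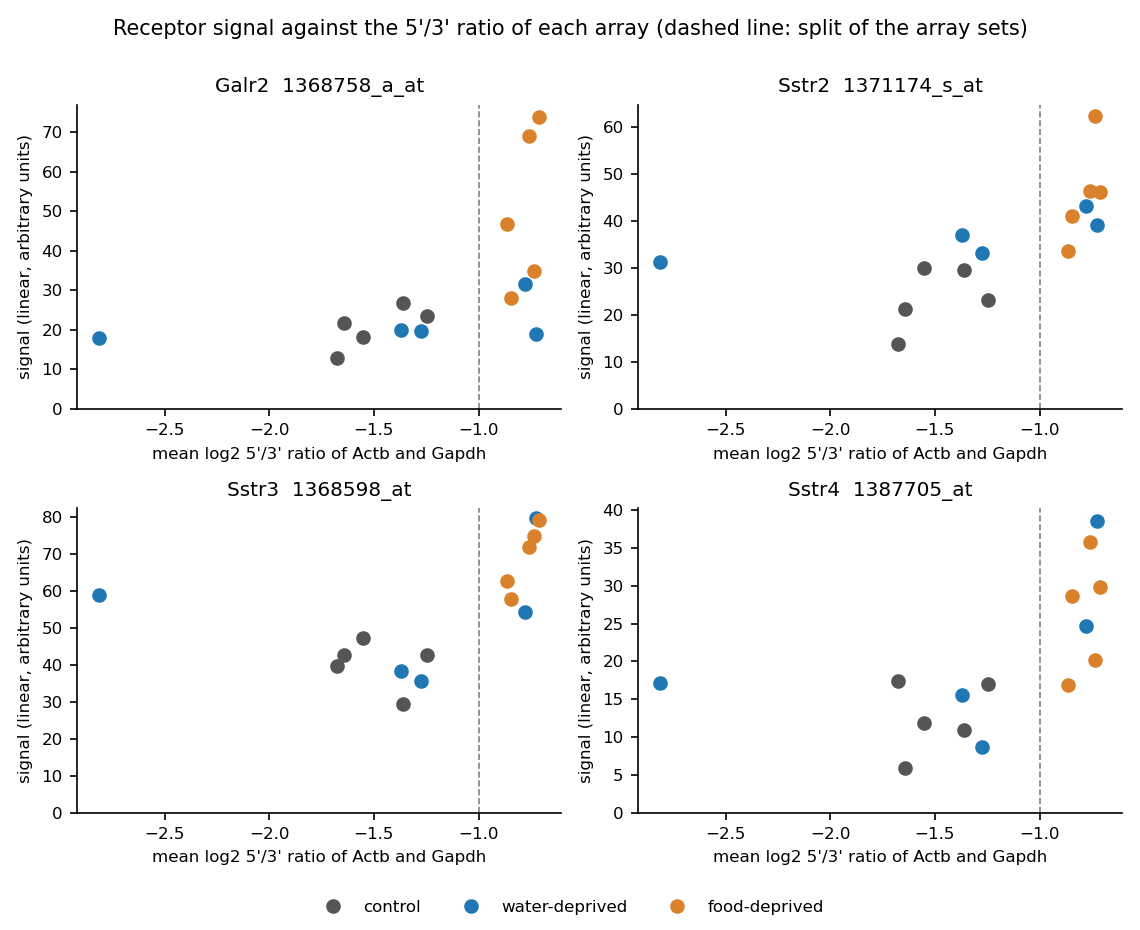
Signal of 4 receptor probe sets (y axis, linear, arbitrary units) against the mean log2 5′ to 3′ ratio of Actb and Gapdh (x axis) on each of the 15 arrays, coloured by group, with a dashed line at the split of −1. Right of the line, the 2 water-deprived arrays read 31.5 and 19.0 for Galr2, under 4 and 5 of the 5 food-deprived arrays, but 54.2 and 79.7 for Sstr3, just below and just above the food-deprived range of 57.7 to 79.1.

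Of 5 ligand genes, Gal, Galp and Sst were measured, and Spx and Cort had no probe set of their own here. The ligand list was chosen with earlier results of these data known, so its p values are a description and not a test. Galp, the galanin-like peptide of arcuate neurons that also binds galanin receptors, read 41.6, 31.9, 45.4, 27.3 and 45.5 in food deprivation against 25.7, 17.5, 16.5, 22.8 and 23.4 in controls. All 5 food-deprived arrays exceeded all controls, a pattern seen in 8.83% of all 31042 probe sets. Galp rose by 0.54 ± 0.14 (limma, adjusted p = 0.0316). With the array set term the Galp difference was 0.34 and was no longer called (limma, adjusted p = 0.678). In water deprivation Galp read 32.1, 23.0, 16.1, 19.3 and 31.6, overlapping the controls (0.11, limma, adjusted p = 0.892).

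Gal, the galanin precursor, read 36.4, 49.5, 71.4, 55.0 and 42.6 in food deprivation, 46.8, 110, 54.4, 69.2 and 49.5 in controls and 54.0, 38.5, 77.8, 90.6 and 45.7 in water deprivation. The groups overlapped, with differences from control of −0.26 ± 0.22 (limma, adjusted p = 0.475) and −0.080 ± 0.22 (limma, adjusted p = 0.948). Sst, the somatostatin precursor, read 30.9, 35.0, 29.5, 39.0 and 51.3 in food deprivation and 51.1, 93.7, 68.2, 38.9 and 51.6 in controls. In water deprivation Sst read 42.4, 31.7, 51.8, 220 and 62.2, the highest being array 4. Sst differed from control by −0.50 ± 0.33 in food deprivation (limma, adjusted p = 0.352), and within water deprivation the high set was lower by a log2 difference of −1.03 (limma, adjusted p = 0.0963). With the array set term the signs turned: the food differences were 0.20 for Gal and 0.53 for Sst (limma, adjusted p = 0.892 and 0.755). The Gal water difference was 0.11 with the term.

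**Figure D4:**
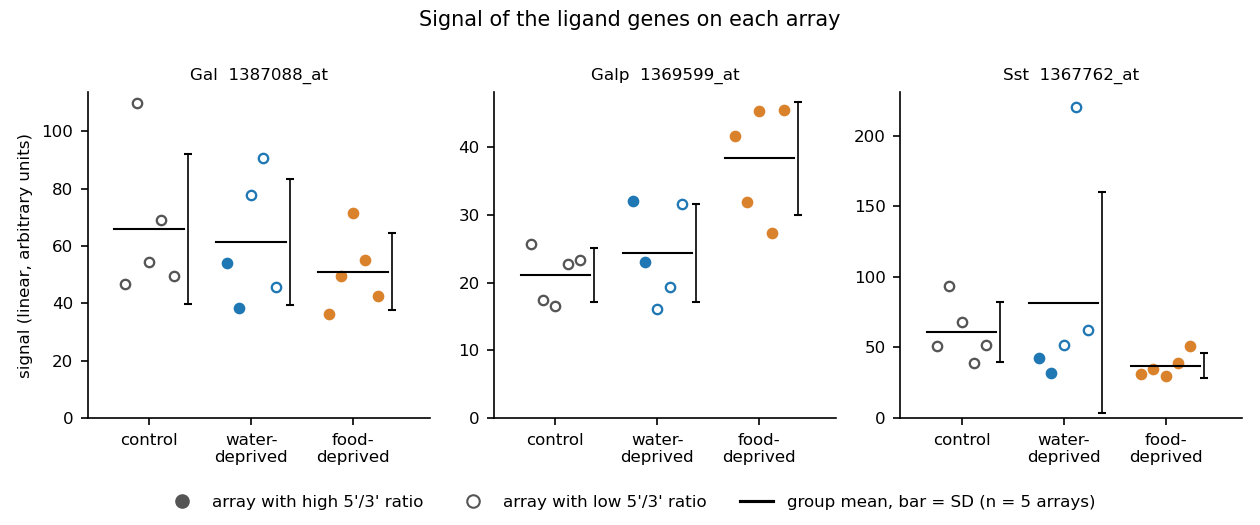
Signal of the ligand genes Gal, Galp and Sst (y axis, linear, arbitrary units) on each array by group; filled points are arrays with a high 5′ to 3′ ratio, lines are means and bars SD over 5 arrays. Galp is the ligand whose 5 food-deprived arrays, at 27.3 to 45.5, all lie above the controls, at 16.5 to 25.7.

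Genes downstream of these receptors were given by list. These lists too were chosen with earlier results of these data known, so their p values are a description and not a test. Of 19 tested G protein subunits, 1 was called higher after food deprivation and 2 lower, with a median of 0.044, where 8.53% of all probe sets tested were called. Gng2, a gamma subunit, rose by 0.82 ± 0.23 (limma, adjusted p = 0.0371), and its difference was 0.40 with the array set term. Gnai2, an alpha subunit of the Gi class through which most of these receptors act, fell (−1.71 ± 0.34, limma, adjusted p = 0.00804), and Gna11, of the Gq class, fell (−0.51 ± 0.13, limma, adjusted p = 0.0291). With the array set term their differences were 0.080 and −0.13, and none of the 3 subunits was called (limma, adjusted p from 0.763 to 0.935). Within water deprivation, 2 of the 19 subunits were called lower in the high set and 2 higher, where 15.9% of all probe sets tested were called. Gnai2 was lower by a log2 difference of −1.79 and Gng3 by −1.12, and Gnai1 and Gnaq were higher by 1.25 and 0.67.

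Of the effectors and regulators, 0 were called by limma after food deprivation, where 8.53% of all probe sets tested were called. The effectors and regulators were 8 tested adenylyl cyclases and phospholipase C beta genes (median 0.074), 3 G protein-gated inward rectifier channels (median 0.15) and 18 arrestins, receptor kinases and RGS proteins (median 0.050). At an unadjusted limma p under 0.05, 3, 0 and 3 of them passed. Of the 3 cyclase and phospholipase genes, Adcy3, a cyclase, was at 0.46 ± 0.15 (limma, adjusted p = 0.0735). Plcb3, a phospholipase that Gq activates, was at 0.48 ± 0.17 (limma, adjusted p = 0.083). Plcb4, of the same class, went the other way, at −0.31 ± 0.13 (limma, adjusted p = 0.139). With the array set term the differences were 0.21 for Adcy3, 0.064 for Plcb3 and −0.23 for Plcb4. All 3 were named after their values were seen. Of 7 tested receptors for other neuropeptides, among them Oprk1, Npy1r, Tacr1 and Hcrtr1, 0 were called by limma and 1 passed unadjusted, with a median of −0.0032. Over all 6 lists, 58 genes were tested. By limma 0 were called in water deprivation against control or against food deprivation. Of all probe sets tested, 0.0046% and 0.152% were called in these comparisons. At an unadjusted p under 0.05, 5 and 14 of the 58 passed. The share of all tested at that limit is not given here, for these counts or for the lists above. Within water deprivation 2 of the 18 arrestins, kinases and RGS proteins were called lower in the high set, where 15.9% of all probe sets tested were called in either direction. They were Rgs4, by a log2 difference of −1.002 (limma, adjusted p = 0.0114), and Arrb2, by −0.68 (limma, adjusted p = 0.0401).

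The genes with the profile most like each receptor were found by the mean absolute difference between centred log2 values over the 15 arrays. For Galr2 (1368758_a_at) they were Insr (0.182), Nsf (0.184) and Thrsp (0.189), where a flat profile would give 0.37. For Sstr2 they were Psmd4 (0.109), Eif4ebp1 (0.111) and Fancc (0.132), against 0.257. For Sstr3 they were Akt2 (0.11), Cyth1 (0.113) and Drosha (0.113), against 0.293. These genes share the arrays, and so the group and array-set differences, with the receptors, and their food differences were 0.41 to 0.78.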

How the data were processed

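RNA of the subfornical organ was kept in RNAlater, purified with QIAzol and RNeasy MinElute columns and amplified with a MessageAmp II kit, per the labels' protocols. The deposited table gives each probe set a linear signal intensity. The submitters' processing notes name GCOS 1.2 without its role. Every array in the deposited table had the same 2% trimmed mean of 100.0, so the table was used without further normalization. Detection calls were not used.

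The members and gene lists were chosen with earlier results of these data known. Tests used R 4.3.3 and limma 3.58.1 on log2(signal + 16) with 3 group means, a variance trend, 12 residual degrees of freedom (11 with the array set term) and Benjamini-Hochberg adjustment over 21729 probe sets above the 30th percentile of mean signal, at a threshold of 0.05, two-sided. The array sets were split at a mean log2 ratio of −1. Probe sets came from the platform annotation, and 8 of 8 receptor gene identifiers matched RefSeq. All receptor probe sets and ligands are described; other list genes are represented by their brightest probe set and named when called, up to 4 per comparison. Alternatives covered offset, filter, normalization, variance model, arrays left out, replicate block and array-set terms. The procedure was tested on simulated data. Figures used Python 3.11.15 and matplotlib 3.10.9. Pools are the replicates, so p values measure the spread between pools, and precision is limited by how many arrays there are.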

Additional observations from a re-analysis of the deposited data

Results flagged for a closer look

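In 4 of 45 groups of 5 arrays (15 receptor and ligand probe sets in 3 groups), 1 array stood apart from the others, with a gap to its neighbour, as a share of the range of the group, above 0.71. Chance alone flags about 1 in 20 groups. Water-deprived array 1, of the high array set, was highest for Galr2 1368758_a_at, at 31.5 (share 0.824). Water-deprived array 3, which had the lowest 5′ to 3′ ratio of all arrays (−2.81), was lowest for Galr3, at 2.74 (share 0.747). Food-deprived array 5 was lowest for Sstr2 1368782_at, at 2.7 (share 0.742). Control array 4 was highest for Sstr5, at 22.0 (share 0.722). The cause of these values was not tested.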

How the results depend on the processing

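In food deprivation against control, the count of called receptor probe sets was 3, and it was 0 with the array set as a term, 0 with the 5′ to 3′ ratio as a continuous term, 1 above the 50th percentile filter, where only Sstr3 was tested, 4 with array weights and 4 with only the arrays compared. It was 2 to 4 when 1 array was left out. In water deprivation against control the count was 0 under all 12 alternatives and without any 1 array. Against food deprivation it was 0, but 2 with array weights and 0 to 1 without 1 array (Galr2 without food-deprived array 5 or water-deprived array 1). Between the array sets it was 0, but 2 with array weights, 1 with an offset of 64 (Sstr4) and 0 to 1 without 1 array (Sstr3 without water-deprived array 3). In water deprivation against control, the Galr2 1368758_a_at difference changed sign, to −0.047 with the array set term and −0.039 with array weights, and ran from −0.048 to 0.098 without 1 array. With the array set term and 1 array left out it ran from −0.129 to 0.012 for Galr2 (control left out: −0.035, −0.069, −0.016, 0.012 and −0.129 for 1 to 5; water-deprived array 3, 4 or 5: −0.019, −0.061 and −0.062), −0.080 to 0.19 for Sstr3 (lowest without water-deprived array 3) and −0.029 to 0.19 for Sstr4 (−0.029 without control 1, −0.022 without water-deprived array 3).

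The replicate numbers do not pair the arrays: same-numbered deviations correlated at −0.361 to 0.366 over the comparisons, and at most 1 of 5 pairs in each exceeded 0.1. With the replicate block the counts were 3 for food deprivation and 0 for the other comparisons. The food and control groups share no array set, so their difference and that of the sets cannot be told apart beyond what 5 water-deprived arrays give, and most receptor signals lie near the dim end of the scale.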
